A study of Mus musculus with 9 samples.

Results

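Cadherins and protocadherins, cell surface receptors with calcium-binding repeats outside the cell, were examined in 3 populations sorted from the subcutaneous white fat of young mice. Members were taken by gene symbol alone: Cdh, Cdhr or Pcdh followed by a number, the lettered families of clustered protocadherins, Fat1 to Fat4, Dchs1 and Dchs2. This gave 81 of the 20655 genes measured, of which 43 were clustered protocadherins and 38 were other members. A further 20 annotation entries match these symbols and were not analysed here, including every matching entry of the alpha clustered family. Per the labels, the mice were C57BL/6 and 12 days old, their inguinal and axillary fat was combined, and DPP4+, ICAM1+ and CD142+ cells were sorted from it, with 3 libraries of each population and 9 in all. Males and females were mixed, and the labels name no treatment and no altered allele in any group. Whether each library had its own animals is not stated, and a p-value here reflects library-to-library spread only, part of which may be technical. The labels give no gate that would remove endothelial, Schwann, mural or immune cells. DPP4 is a peptidase of the cell surface, ICAM1 is a receptor of the immunoglobulin family, and CD142 is the product of F3, tissue factor. The comparisons ask in which adhesion receptors the 3 populations differ.

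Classical cadherins bind their own kind on a neighbouring cell and connect through catenins to the actin cytoskeleton. Type I members include E-cadherin (Cdh1) and N-cadherin (Cdh2), and type II members include Cdh11 of mesenchymal cells and Cdh5 of endothelial cells. Protocadherins lack the tail that binds catenins. The clustered protocadherins are made from arrays of variable exons, each with its own promoter, and give neurons surface identities. Fat and Dachsous proteins are very large cadherins that bind each other across cell borders and act in planar polarity and Hippo signalling.

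Each gene is described by a mean, a fold change and a fitted level. The mean is the count divided by size factors and averaged over the 9 libraries. The log2 fold change is given with its standard error and a p-value adjusted by Benjamini and Hochberg's method, all from the authors' deposited DESeq2 tables. The fitted level is the normalised count of a population worked out here from that mean and those fold changes. It has no error of its own, and values of single libraries were not used here. A gene was called at an adjusted p below 0.05. In bulk libraries, fewer cells of a type and less RNA per cell cannot be told apart. The sort genes differed largely as labelled. Dpp4 had fitted levels of 5466 in DPP4+, 89.9 in ICAM1+ and 729 in CD142+ cells, and F3 had 243, 310 and 1469 in the same order. Icam1 was far above DPP4+ cells (1162) in ICAM1+ (7966) and CD142+ cells (7058), but ICAM1+ and CD142+ cells did not pass the test against each other (0.17 ± 0.15, adjusted p = 0.631). The stromal marker Pdgfra was present in each population, with fitted levels from 2849 to 4432. Of the 8 stromal markers, 6 were lower in ICAM1+ than in DPP4+ cells, as were 12.0% of all genes. Among them was Cd34 (13820 in DPP4+, 3154 in ICAM1+ and 5095 in CD142+ cells).

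Few of the members carried most of the signal. The 12 members with the highest means held 84.4% of the summed member mean of 12491 normalised counts, which was 0.138% of all gene counts. Counts grow with transcript length, so levels of different genes were compared per 1000 exon bases that no other gene shares on the same strand. On that scale the mean was highest for Pcdhgc3 (347), followed by Cdh5 (181), Cdh11 (129), Pcdh7 (127) and Fat1 (105), with no error on these values. A mean of at least 100 was reached by 14 members and a mean below 10 was found for 22. In ICAM1+ against DPP4+ cells, 21 of the 75 members tested were called, or 28.0%, against 24.4% of all genes tested. Of these, 15 were higher in ICAM1+ cells, where the share over all genes was 12.4%, and 6 were lower, where it was 12.0%. In CD142+ against DPP4+ cells, 14 of 75 were called (18.7%, against 19.0% of all genes), 9 of them higher (10.1% of all genes) and 5 lower (8.91% of all genes). Between ICAM1+ and CD142+ cells, 12 of 71 were called (16.9%, against 9.05% of all genes), 7 higher in ICAM1+ cells (3.77% of all genes) and 5 lower (5.28% of all genes). Both comparisons against DPP4+ cells use the same DPP4+ libraries. The median log2 fold change over the members was 0.47, 0.01 and 0.17 in the 3 comparisons, beside 0.02, -0.01 and -0.0 over all genes tested.

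Among the 14 members with a mean of at least 100, 9 were called in ICAM1+ against DPP4+ cells (37.1% of all genes with such a mean), 8 in CD142+ against DPP4+ cells (28.5%) and 5 between ICAM1+ and CD142+ cells (13.4%). Of the 75 members tested in at least 1 comparison, 26 were called in at least 1 (29.5% of all genes), and of the 71 tested in all 3, 5 were called in all 3 (3.54% of all genes). For 6 low members DESeq2 gave no adjusted p in any comparison. Of the 59 members with a mean of at least 10, the highest fitted level was in DPP4+ cells for 20, in ICAM1+ cells for 26 and in CD142+ cells for 13.

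Counted by population, 16 members stood apart from both other populations in the same direction. DPP4+ cells were higher than both others for 5 of the 71 members tested (7.81% of all genes), namely Fat4, Dchs1, Pcdh20, Pcdh9 and Cdh10, and lower for 6 (8.04% of all genes), namely Pcdhgc3, Cdh11, Pcdh18, Cdh13, Dchs2 and Cdh4. ICAM1+ cells were higher for 5 (2.75% of all genes), which were Cdh5, Pcdh1, Dchs2, Cdh19 and Cdh15, and lower for Fat4 and Pcdh20 (2.79% of all genes). CD142+ cells were higher for Cdh11, Cdh4 and Fat3 (2.13% of all genes). The DESeq2 tables gave 0 members lower in CD142+ cells than in both others, where 0.568% of all genes were, and 0 had an unadjusted p below 0.05 in both comparisons.

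**Figure D1:**
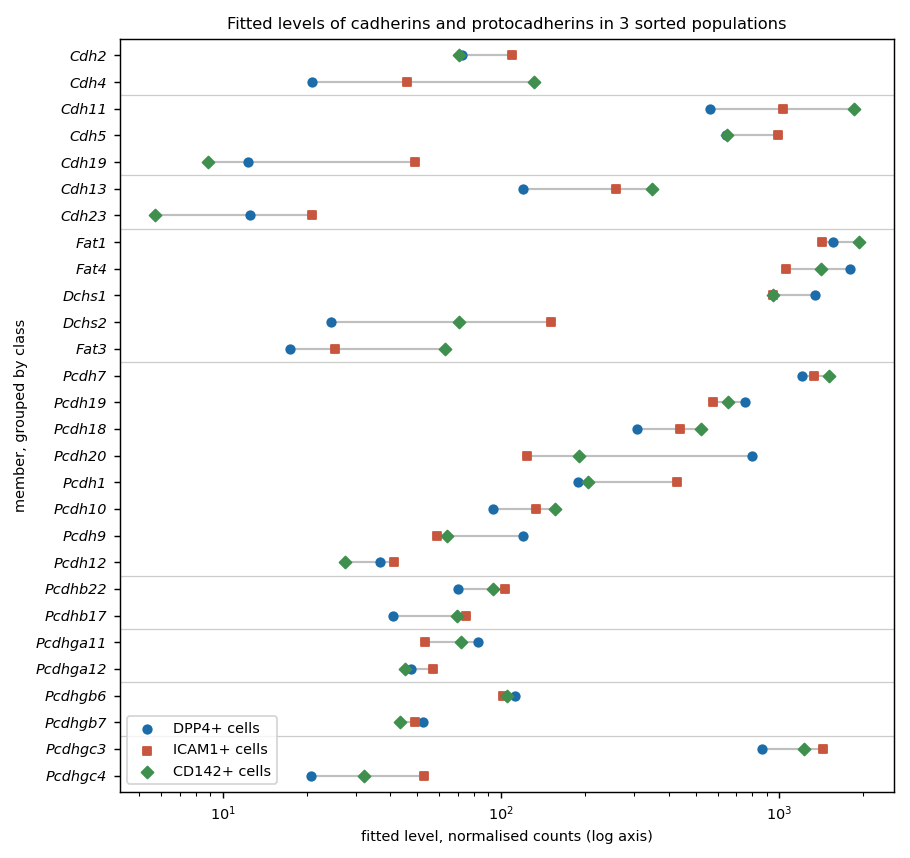
Fitted level in normalised counts (x axis, logarithmic) of the 28 named members with a mean of at least 10 (y axis, grouped by class), 1 symbol per population. The levels have no error of their own. Pcdh20 lies at 798 in DPP4+ and 124 in ICAM1+ cells, whereas Cdh11 runs from 564 in DPP4+ to 1851 in CD142+ cells.

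The stretch of 250 bases before the RefSeq start is shown for 4 members that stood apart from both others in different ways: Pcdh20 and Fat4, highest in DPP4+ and lowest in ICAM1+ cells, Dchs2, highest in ICAM1+ and lowest in DPP4+ cells, and Fat3, highest in CD142+ cells. They were chosen for these values, and they come from the RefSeq table for GRCm38.p6, which held a window for 25 of the 81 members. Each is written 5′ to 3′ on the strand of its gene. Capitals mark the GC box GGGCGG or its other strand CCGCCC.
Pcdh20: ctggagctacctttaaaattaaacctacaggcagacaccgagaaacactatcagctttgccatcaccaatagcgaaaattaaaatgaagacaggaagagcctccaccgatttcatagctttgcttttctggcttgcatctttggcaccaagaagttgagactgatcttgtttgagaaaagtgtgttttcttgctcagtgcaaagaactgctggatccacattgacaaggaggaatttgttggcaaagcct
Fat4: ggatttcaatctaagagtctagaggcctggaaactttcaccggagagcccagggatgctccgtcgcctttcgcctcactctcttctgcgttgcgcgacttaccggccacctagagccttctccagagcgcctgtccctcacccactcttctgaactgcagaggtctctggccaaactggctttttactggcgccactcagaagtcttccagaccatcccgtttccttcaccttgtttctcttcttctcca
Dchs2: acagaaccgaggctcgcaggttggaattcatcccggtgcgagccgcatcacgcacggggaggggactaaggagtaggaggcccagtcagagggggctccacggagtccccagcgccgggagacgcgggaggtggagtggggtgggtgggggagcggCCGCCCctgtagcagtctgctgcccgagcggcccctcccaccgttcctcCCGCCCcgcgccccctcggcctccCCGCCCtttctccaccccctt
Fat3: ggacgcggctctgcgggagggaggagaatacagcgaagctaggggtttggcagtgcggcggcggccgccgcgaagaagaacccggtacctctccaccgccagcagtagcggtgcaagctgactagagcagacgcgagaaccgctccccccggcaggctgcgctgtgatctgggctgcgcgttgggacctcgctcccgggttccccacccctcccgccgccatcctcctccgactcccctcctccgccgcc

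The Pcdh20 window is chr14:88471397-88471646 on the minus strand, with 42.4% G and C. That of Fat4 is chr3:38886690-38886939 on the plus strand, with 54.8%. That of Dchs2 is chr3:83127277-83127526 on the plus strand, with 72.0%, and that of Fat3 is chr9:16502055-16502304 on the minus strand, with 70.4%. The median over the 32851 windows of the table was 52.4%. The RefSeq start lies 421 bases before the GENCODE start for Dchs2 and 769 bases before it for Fat3, and the starts coincide for Pcdh20 and Fat4. Motifs were searched on both strands: GGGCGG, the E-box CAGGTG (other strand CACCTG) read by Snail and Zeb repressors, CATTCC (other strand GGAATG) of TEAD factors, and TATAAA (other strand TTTATA). No motifs overlapped in the windows shown. Dchs2 held 3 matches to the GC box, beginning 94, 45 and 21 bases before the start, while the other windows held none of the 4 motifs. Over all windows, 32.7% held GGGCGG, 17.2% CAGGTG, 12.6% CATTCC and 12.4% TATAAA, against 10, 3, 4 and 1 of the 26 windows of members.

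Fat and Dachsous members held 4736 of the 11896 normalised counts of all members in DPP4+ cells. In ICAM1+ cells they held 3605 of 12213, and in CD142+ cells 4429 of 13364. These shares are not set per exon length, and these genes have from 10783 to 21478 exon bases. The Fat and Dachsous members went in different directions. Fat4 (ENSMUSG00000046743.6, chr3:38886940-39011985 in GRCm38, plus strand) encodes a receptor for the Dachsous ligands. Its fitted level was 1795 in DPP4+, 1055 in ICAM1+ and 1414 in CD142+ cells. All 3 pairs passed: -0.77 ± 0.13 in ICAM1+ against DPP4+ cells (adjusted p = 3.8e-08), -0.34 ± 0.13 in CD142+ against DPP4+ cells (adjusted p = 0.0387) and -0.42 ± 0.13 in ICAM1+ against CD142+ cells (adjusted p = 0.0151). The difference between CD142+ and DPP4+ cells no longer passed after re-centring the fold changes on the median of abundant genes. Dchs1, its ligand (ENSMUSG00000036862.15, chr7:105752990-105787654, minus strand), was highest in DPP4+ cells as well, at 1338 against 948 in each of the others. The log2 fold change was -0.50 ± 0.14 in both comparisons against DPP4+ cells (adjusted p = 0.00224 and 0.00266).

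Dchs2, the second Dachsous ligand, had the opposite order from a far lower level. Its fitted level was 24.5 in DPP4+, 151 in ICAM1+ and 70.3 in CD142+ cells (ENSMUSG00000102692.1, chr3:83127948-83357209, plus strand, with 12.0% of its exon bases overlapped from the opposite strand). The change was 2.62 ± 0.30 in ICAM1+ against DPP4+ cells (adjusted p = 2.53e-16), 1.52 ± 0.31 in CD142+ against DPP4+ cells (adjusted p = 1.36e-05) and 1.10 ± 0.27 between ICAM1+ and CD142+ cells (adjusted p = 0.000989). Per 1000 exon bases the fitted level of Dchs1 was 121 in DPP4+ and 85.7 in ICAM1+ cells, that of Dchs2 was 2.27 and 14.0, so Dchs1 stayed the more abundant of the pair. Fat3 was highest in CD142+ cells, at 63.0 against 17.5 in DPP4+ and 25.4 in ICAM1+ cells. It was higher by 1.85 ± 0.40 than in DPP4+ cells (adjusted p = 4.92e-05), and the value for ICAM1+ against CD142+ cells was -1.31 ± 0.38 (adjusted p = 0.0103). Fat1, with a mean of 1640, did not pass in any comparison (-0.13 ± 0.16, 0.31 ± 0.16 and -0.44 ± 0.16 in the order used above, adjusted p from 0.0601 to 0.634).

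Among classical cadherins, Cdh11 and Cdh4 were lowest in DPP4+ and highest in CD142+ cells. Cdh11, or OB-cadherin (ENSMUSG00000031673.6, chr8:102632095-102785642, minus strand), had fitted levels of 564 in DPP4+, 1030 in ICAM1+ and 1851 in CD142+ cells. It was higher than in DPP4+ cells by 0.87 ± 0.14 in ICAM1+ cells (adjusted p = 1.33e-08) and by 1.72 ± 0.14 in CD142+ cells (adjusted p = 1.41e-32), and ICAM1+ cells lay below CD142+ cells (-0.85 ± 0.14, adjusted p = 6.21e-08). Every pair therefore passed. Cdh4, or R-cadherin, of the type I class (ENSMUSG00000000305.12, chr2:179442431-179899373, plus strand) had the same order at 20.9, 46.1 and 131. Its changes were 1.15 ± 0.39, 2.65 ± 0.38 and -1.51 ± 0.35 in the same comparisons, all called. N-cadherin, Cdh2, had fitted levels of 72.2, 109 and 70.3 and did not pass in any comparison, with 0.59 ± 0.26 in ICAM1+ against DPP4+ cells (adjusted p = 0.0815). E-cadherin, Cdh1, outside the rule for named genes, had a mean of 10.1 and was not called in any comparison. P-cadherin, Cdh3, again outside that rule and picked after its values were seen, had fitted levels of 1.79, 13.0 and 1.76 and was called in ICAM1+ against DPP4+ cells (2.87 ± 1.06, adjusted p = 0.0303).

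Type II members with few counts were also called. Cdh10 was higher in DPP4+ cells than in both others, with fitted levels of 15.6, 1.74 and 1.68 and changes of -3.17 ± 1.01 (adjusted p = 0.00918) and -3.22 ± 0.98 (adjusted p = 0.00734). Cdh9 and Cdh6, both outside the naming rule and chosen after their values were seen, were called in 1 comparison each. Cdh9 had fitted levels of 15.1, 0.462 and 3.18, lower in ICAM1+ than in DPP4+ cells (adjusted p = 0.00279), and Cdh6 had 9.40, 27.1 and 7.93, higher in ICAM1+ than in CD142+ cells (adjusted p = 0.0439), a call lost when p was adjusted over every gene. Levels of a few normalised counts make the size of these changes uncertain.

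Cadherins without a classical tail varied as well. Cdh13, or T-cadherin, is anchored to the membrane by a lipid and binds adiponectin (ENSMUSG00000031841.19, chr8:118283733-119324921, plus strand). Its fitted level was 120 in DPP4+, 258 in ICAM1+ and 349 in CD142+ cells, higher than in DPP4+ cells by 1.10 ± 0.22 (adjusted p = 6.01e-06) and 1.54 ± 0.22 (adjusted p = 3.23e-11). ICAM1+ and CD142+ cells did not pass against each other (-0.44 ± 0.21, adjusted p = 0.224). Cdh23, the tip link cadherin of hair cells, had fitted levels of 12.5 in DPP4+ and 5.71 in CD142+ cells, was highest in ICAM1+ cells, and passed between ICAM1+ and CD142+ cells (1.88 ± 0.64, adjusted p = 0.0386), but not when p was adjusted over every gene. Cdh17, outside the naming rule and also chosen after its values were seen, had 0.383, 4.41 and 11.3 and passed in CD142+ against DPP4+ cells (adjusted p = 0.00617).

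**Figure D2:**
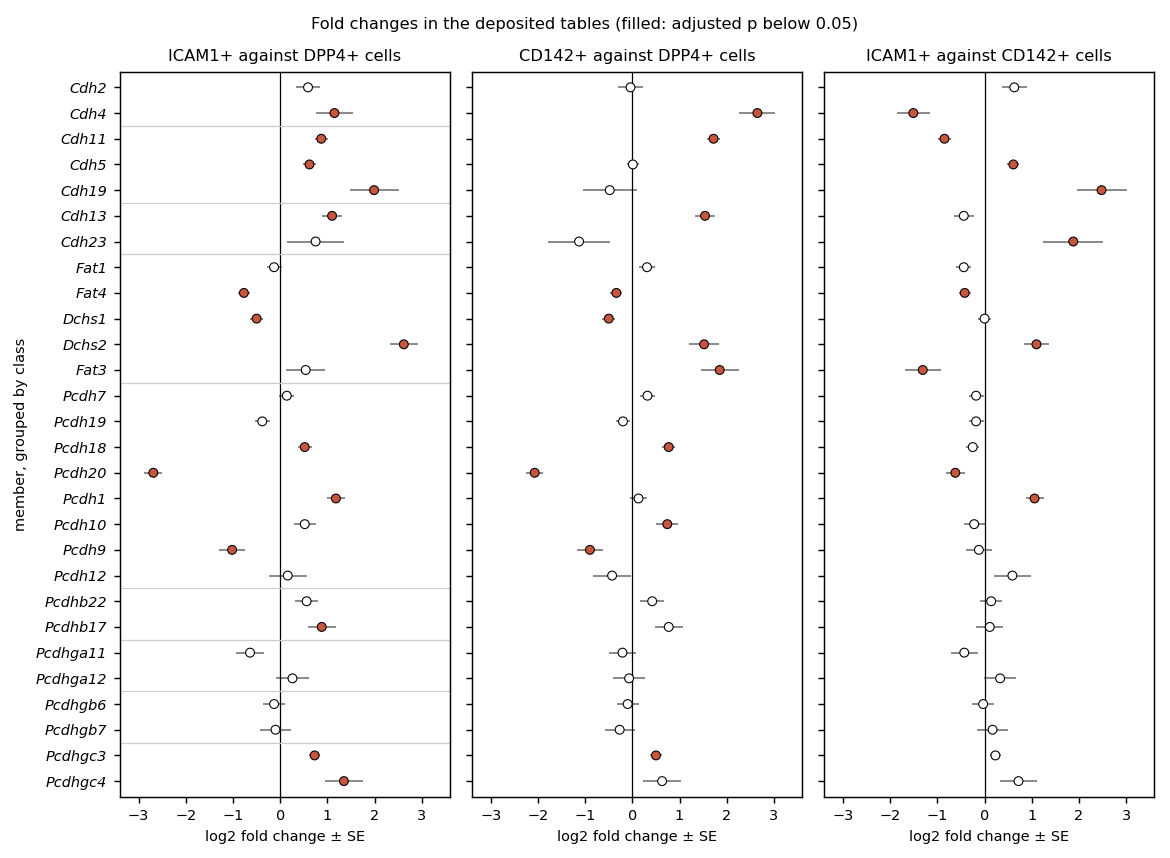
Log2 fold change with its standard error (x axis) of the same 28 members (y axis, grouped by class) in the 3 deposited comparisons, with filled points for an adjusted p below 0.05. The lowest point against DPP4+ cells is that of Pcdh20 (-2.69 ± 0.19 for ICAM1+ and -2.07 ± 0.18 for CD142+ cells), and Dchs2 (2.62 ± 0.30) and Cdh4 (2.65 ± 0.38) lie furthest to the right.

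Non-clustered protocadherins held the change with the smallest adjusted p among the members. Pcdh20 (ENSMUSG00000050505.7, chr14:88464743-88471396, minus strand) is a delta protocadherin. Its fitted level fell from 798 in DPP4+ to 124 in ICAM1+ and 190 in CD142+ cells. The change was -2.69 ± 0.19 in ICAM1+ against DPP4+ cells (adjusted p = 3.1e-42), -2.07 ± 0.18 in CD142+ against DPP4+ cells (adjusted p = 2.9e-27) and -0.62 ± 0.20 between ICAM1+ and CD142+ cells (adjusted p = 0.0265). Pcdh9, also on chromosome 14, was higher in DPP4+ cells too, at 120 against 58.9 and 64.0, with changes of -1.02 ± 0.27 (adjusted p = 0.00123) and -0.90 ± 0.27 (adjusted p = 0.00527). ICAM1+ and CD142+ cells had -0.12 ± 0.28 for Pcdh9.

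Pcdh18 and Pcdh10 lay on the other side. Pcdh18 had 307, 441 and 524, higher than in DPP4+ cells by 0.52 ± 0.15 in ICAM1+ cells (adjusted p = 0.00231) and by 0.77 ± 0.14 in CD142+ cells (adjusted p = 1.46e-06). Pcdh10 had 93.3, 134 and 156 and passed only in CD142+ against DPP4+ cells (0.74 ± 0.23, adjusted p = 0.00863), with 0.52 ± 0.23 in ICAM1+ against DPP4+ cells (adjusted p = 0.089). Whether those changes of Pcdh10 differ is given by ICAM1+ against CD142+ cells, which did not pass (-0.22 ± 0.22, adjusted p = 0.703). Pcdh1, an epithelial and vascular protocadherin, stood apart in ICAM1+ cells, at 429 against 189 in DPP4+ (1.18 ± 0.19, adjusted p = 8.55e-09) and 206 in CD142+ cells (1.06 ± 0.19, adjusted p = 1.03e-06). Pcdh7, with levels from 1208 to 1503, and Pcdh19, with levels from 577 to 750, did not pass in any comparison.

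The 43 clustered protocadherins lie on chromosome 18, over 524.7 kb from the first to the last gene start, and are given by family. Of the 21 Pcdhb members, 2 were higher in ICAM1+ than in DPP4+ cells (9.52%, against the 12.4% of all genes) and 17 had fold changes above 0, with a median of 0.50. Pcdhb17 had fitted levels of 40.8, 75.0 and 69.6 (0.88 ± 0.30 in ICAM1+ against DPP4+ cells, adjusted p = 0.0181). The other was Pcdhb19, outside the naming rule, at 23.4, 47.5 and 35.6 (1.02 ± 0.38, adjusted p = 0.0341). Pcdhb22, with the highest mean of the family, had 0.56 ± 0.25 and did not pass (adjusted p = 0.0908). In CD142+ against DPP4+ cells DESeq2 called 0 of the 21, against 19.0% of all genes. Of the 21, 3 had an unadjusted p below 0.05, 16 lay above 0 and the median was 0.42.

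The 19 Pcdhga and Pcdhgb members lay mostly on the other side of 0 with none called. In ICAM1+ against DPP4+ cells DESeq2 called 0 of 19, against 24.4% of all genes. Of the 19, 1 had an unadjusted p below 0.05, 14 lay below 0 and the median was -0.37. In CD142+ against DPP4+ cells the count was again 0, against 19.0% of all genes. There, 3 had an unadjusted p below 0.05, 16 lay below 0 and the median was -0.35. Pcdhgb6 had fitted levels of 112, 102 and 105, and Pcdhga11 had 82.7, 53.1 and 71.6 (-0.64 ± 0.29 in ICAM1+ against DPP4+ cells, adjusted p = 0.0911). The standard errors of these 19 had a median of 0.36, and the DPP4+ libraries are shared by both comparisons.

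The 3 Pcdhgc members, at the far end of the cluster, were higher in ICAM1+ than in DPP4+ cells, as were 12.4% of all genes. Pcdhgc3 had fitted levels of 864 in DPP4+, 1431 in ICAM1+ and 1221 in CD142+ cells, with changes of 0.73 ± 0.12 (adjusted p = 2.28e-08) and 0.50 ± 0.12 (adjusted p = 0.000343) against DPP4+ cells. Pcdhgc4 had 20.8, 53.0 and 32.1 and passed in ICAM1+ against DPP4+ cells (1.35 ± 0.41, adjusted p = 0.00544). Pcdhgc5, outside the naming rule, had 24.6, 49.6 and 26.1 and passed there too (1.01 ± 0.39, adjusted p = 0.0423). Between ICAM1+ and CD142+ cells DESeq2 called 0 of the 42 clustered members tested, against 9.05% of all genes. Of these members, 2 had an unadjusted p below 0.05. Exons are shared within this locus. Of the clustered members, 23 share at least 10% of their exon bases with another gene, and for Pcdhgc3 the share was 38.5% on its own strand and 28.4% on the other, so reads of these genes may be split or mixed by the counting.

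**Figure D3:**
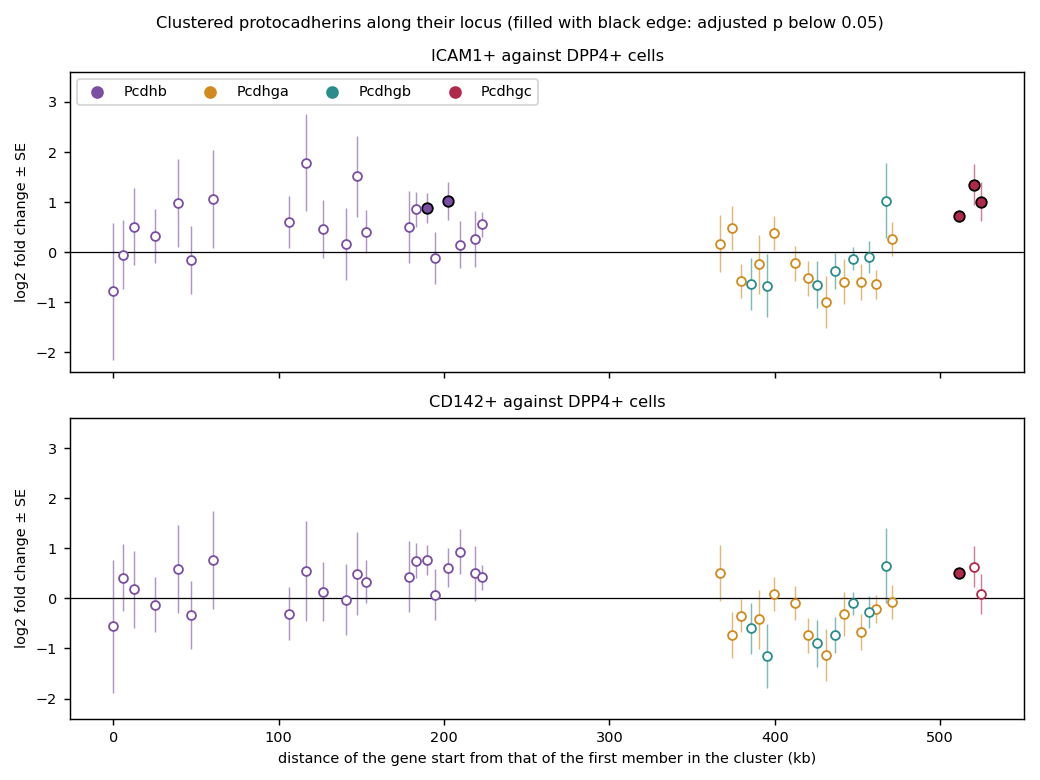
Log2 fold change with its standard error (y axis) of the 43 clustered protocadherins against the distance of their gene start from that of the first one (x axis, kb), coloured by family, for ICAM1+ and CD142+ cells against DPP4+ cells. Points filled with a black edge have an adjusted p below 0.05, which are 2 Pcdhb and 3 Pcdhgc members for ICAM1+ cells and Pcdhgc3 for CD142+ cells.

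Members known from other cell types are described apart. Beside the marker counts given with them, 12.4% of all genes were higher and 12.0% lower in ICAM1+ than in DPP4+ cells. In ICAM1+ against CD142+ cells, 3.77% were higher and 5.28% lower. Cdh19, a cadherin of Schwann cells and their precursors (ENSMUSG00000047216.8, chr1:110888326-110977584, minus strand), had fitted levels of 12.3 in DPP4+, 49.1 in ICAM1+ and 8.83 in CD142+ cells. It was higher in ICAM1+ cells by 1.99 ± 0.52 than in DPP4+ cells (adjusted p = 0.000952) and by 2.48 ± 0.53 than in CD142+ cells (adjusted p = 9.69e-05). Of the 12 Schwann markers listed, 9 were higher and 1 lower in ICAM1+ than in DPP4+ cells, and 9 were higher and 1 lower than in CD142+ cells. Sox10, the transcription factor of the glial lineage, had 7.83, 42.2 and 7.20. S100b was highest in CD142+ cells instead, at 25.7, 52.9 and 78.7, and Ngfr had 108, 404 and 195. In CD142+ against DPP4+ cells 2 of the 12 were higher, S100b and Ngfr, as were 10.1% of all genes. The marker lower in ICAM1+ than in DPP4+ cells was Pmp22 (-0.34 ± 0.12, adjusted p = 0.0254), which many other cells express. The summed fitted level of the list was 3532, 4966 and 3835, and without Pmp22 it was 1465, 3332 and 1356. Leaving out Pmp22, the marker called lower, was not planned beforehand. No marker of the list had a mean of 0. The part of Schwann cell RNA in the values of Cdh19 was not tested.

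Cdh5, or VE-cadherin, the adhesion receptor of endothelial junctions (ENSMUSG00000031871.9, chr8:104101625-104144511, plus strand), had a fitted level of 644 in DPP4+, 989 in ICAM1+ and 649 in CD142+ cells, higher in ICAM1+ cells by 0.62 ± 0.13 than in DPP4+ cells (adjusted p = 2.75e-05) and by 0.61 ± 0.13 than in CD142+ cells (adjusted p = 0.00011). Of the 13 endothelial markers listed, 6 were higher and 1 lower in ICAM1+ than in DPP4+ cells, and 6 were higher than in CD142+ cells. Pecam1 had 547, 790 and 474, and Vwf had 480, 850 and 421. Eng had 669, 845 and 831, nearly as high in CD142+ as in ICAM1+ cells, and did not pass in any comparison. The marker lower in ICAM1+ than in DPP4+ cells was Tek, the angiopoietin receptor, at 2733, 539 and 507. The summed level was 6118, 5454 and 3935 with Tek. Without Tek the sum was 3385, 4915 and 3428. Leaving out Tek, the marker called lower, was not planned beforehand, and it moved the highest sum from DPP4+ to ICAM1+ cells. No endothelial marker had a mean of 0, and the part of endothelial RNA in the values of Cdh5 was not tested. Pcdh12, also of endothelial junctions, had 36.8, 41.2 and 27.4 and did not pass in any comparison (0.16 ± 0.40, -0.43 ± 0.40 and 0.59 ± 0.40).

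Cdh15, or M-cadherin of satellite cells, had fitted levels of 2.10, 15.0 and 1.97 and was called higher in ICAM1+ cells against both others (2.84 ± 1.05, adjusted p = 0.0303, and 2.93 ± 1.02, adjusted p = 0.0477). The call against CD142+ cells was lost when p was adjusted over every gene. Of 9 muscle and satellite cell markers measured, 1 was higher in ICAM1+ than in DPP4+ cells, Myod1, at 1.05, 10.6 and 1.51. The call of Myod1 was also lost when p was adjusted over every gene. The summed level of the list was 125, 145 and 105. Of 9 epithelial markers measured, beside Cdh1 and Cdh3, 4 were higher and 1 lower in ICAM1+ than in DPP4+ cells. Krt14 had 0.409, 27.3 and 2.74, while Cldn3 was high in DPP4+ cells at 86.7, 2.12 and 4.47, and the list summed to 124, 125 and 72.0. Mural markers summed to 3788, 13409 and 8490, with 8 of 12 higher and 1 lower in ICAM1+ than in DPP4+ cells. The 1 lower was Kcnj8, outside the naming rule and picked after its values were seen, at 399, 95.9 and 340. In CD142+ against DPP4+ cells 6 of the 12 were higher, as were 10.1% of all genes. Notch3 had 379, 3887 and 2444, whereas Abcc9 was highest in CD142+ cells at 696, 855 and 1640. Immune markers summed to 265, 454 and 307, with 1 of the 11 measured higher in ICAM1+ than in DPP4+ cells. Mesothelial markers summed to 141, 42.4 and 73.2, mostly from Krt19 (125, 31.5 and 54.6). Krt19 was the 1 of 6 lower in ICAM1+ than in DPP4+ cells. Stromal markers summed to 579758, 352025 and 593542, mostly from Col1a1 (508937, 307651 and 537730). Of these 8 markers, 1 was higher and 6 were lower in ICAM1+ than in DPP4+ cells. The part of these cells in the members' values was not tested.

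**Figure D4:**
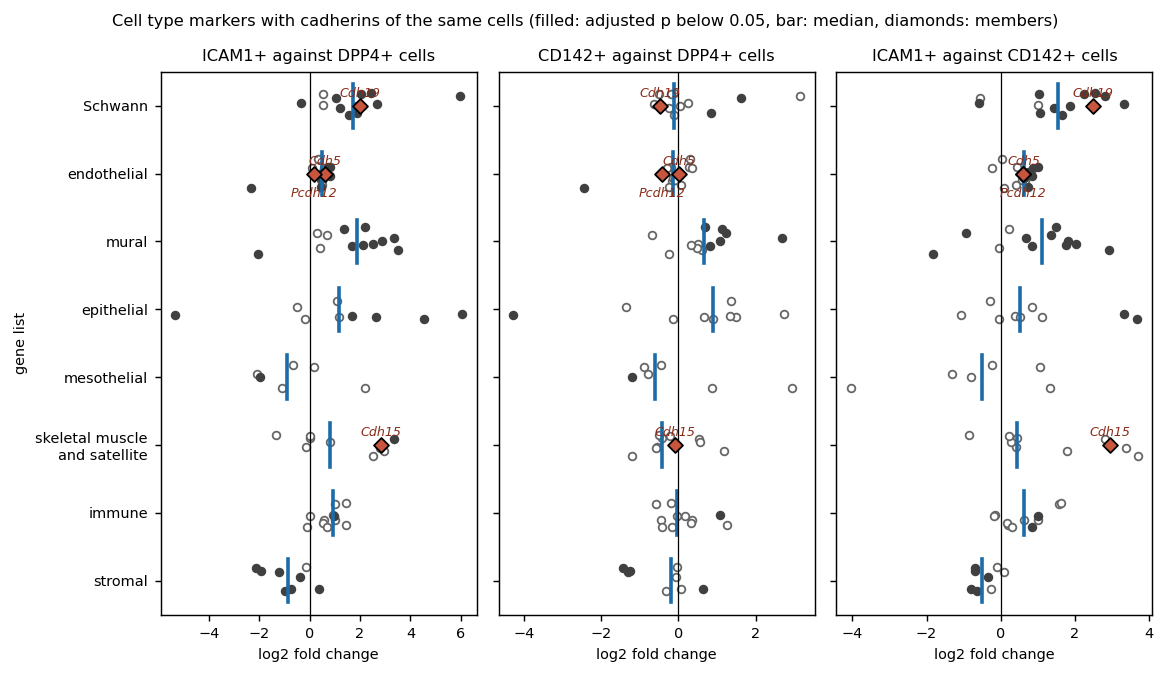
Log2 fold change (x axis) of the genes of 8 marker lists (y axis) in the 3 comparisons. Circles are markers, filled for an adjusted p below 0.05, blue bars are list medians and diamonds are the members Cdh19, Cdh5, Pcdh12 and Cdh15. The Schwann list has a median of 1.73 in ICAM1+ against DPP4+ cells and 1.55 in ICAM1+ against CD142+ cells, where Cdh19 lies at 1.99 and 2.48.

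Genes that act with cadherins were followed through lists chosen by function. Of 16 catenins and adaptors, 15 were tested in ICAM1+ against DPP4+ cells, with 6 higher (12.4% of all genes) and 2 lower (12.0% of all genes). In CD142+ against DPP4+ cells 14 were tested, with 3 higher (10.1% of all genes) and 3 lower (8.91% of all genes). Ctnnb1 (beta-catenin), with fitted levels of 2839, 2833 and 3071, and Ctnna1 (alpha-catenin), with 1450, 1371 and 1430, did not pass in any comparison. Other catenins did. Jup (gamma-catenin) was lower in CD142+ than in DPP4+ cells (-0.47 ± 0.14, adjusted p = 0.0059). Ctnna3, a further alpha-catenin with a mean of only 9.3, was higher in ICAM1+ than in DPP4+ cells (2.98 ± 0.86, adjusted p = 0.00324). Ctnnd2, a delta-catenin, was higher in DPP4+ cells at 42.5 against 8.25 and 7.43 (-2.36 ± 0.55 and -2.51 ± 0.54, adjusted p = 0.000148 and 4.72e-05). Pkp4, another relative of delta-catenin, had 154, 223 and 284 and was called in the opposite direction in both comparisons. Between ICAM1+ and CD142+ cells DESeq2 called 0 of the 13 tested, against 9.05% of all genes. Of the 16 measured, 4 had an unadjusted p below 0.05.

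Of the 13 partners of Fat and Dachsous proteins in planar polarity, 2 were higher and 2 lower in each comparison against DPP4+ cells. Beside these counts and those of the next list, 12.4% of all genes were higher and 12.0% lower in ICAM1+ than in DPP4+ cells. In CD142+ against DPP4+ cells, 10.1% were higher and 8.91% lower. Prickle1, a core polarity protein, had 133, 185 and 443, highest in CD142+ cells (1.74 ± 0.21 against DPP4+ cells, adjusted p = 5.89e-15). Prickle2 had 219, 447 and 525 and was called in both comparisons against DPP4+ cells. Fzd6, with 34.5, 14.2 and 11.4, was called lower in both (-1.28 ± 0.51, adjusted p = 0.0483, and -1.59 ± 0.51, adjusted p = 0.0124). Of 14 measured genes of the YAP and TEAD pathway and its targets, 3 were higher and 1 lower in ICAM1+ than in DPP4+ cells, and 4 were higher in CD142+ than in DPP4+ cells. Yap1 had 849, 1391 and 1322, and the target Ccn2 had 418, 435 and 1300 (1.64 ± 0.13 in CD142+ against DPP4+ cells, adjusted p = 3.24e-33). The target Ccn1, with the highest mean of the list, had 7184, 5481 and 7201 and did not pass in any comparison. Its change in CD142+ against DPP4+ cells was 0.00 ± 0.30 (adjusted p = 0.997).

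Of 6 repressors of E-cadherin, 4 were higher and 1 lower in each comparison against DPP4+ cells. Twist2 had 339, 733 and 576, and Snai2 had 46.8, 92.5 and 110, whereas Twist1 had 996, 670 and 511. The called genes among the proteases that shed and cut cadherins lay on the other side. Of 8 sheddase and gamma-secretase genes, 5 were lower in ICAM1+ and 3 in CD142+ than in DPP4+ cells, and the rest did not pass. Adam10 had 771, 526 and 498 (-0.55 ± 0.13 and -0.63 ± 0.13), and Adam17 had 848, 552 and 572 (-0.62 ± 0.13 and -0.57 ± 0.13). Of 11 regulators of the clustered protocadherin genes, 3 were higher in ICAM1+ than in DPP4+ cells, among them the cohesin subunit Smc1a (524, 759 and 759), while Ctcf, which folds the cluster, had 334, 346 and 371 and did not pass. Of the 6 measured desmosomal cadherins and calsyntenins, relatives outside the symbol rule, 2 were lower in ICAM1+ than in DPP4+ cells. Dsc2 had 42.5, 3.47 and 5.32, and Clstn2 was highest in CD142+ cells at 10.4, 7.99 and 47.5.

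**Figure D5:**
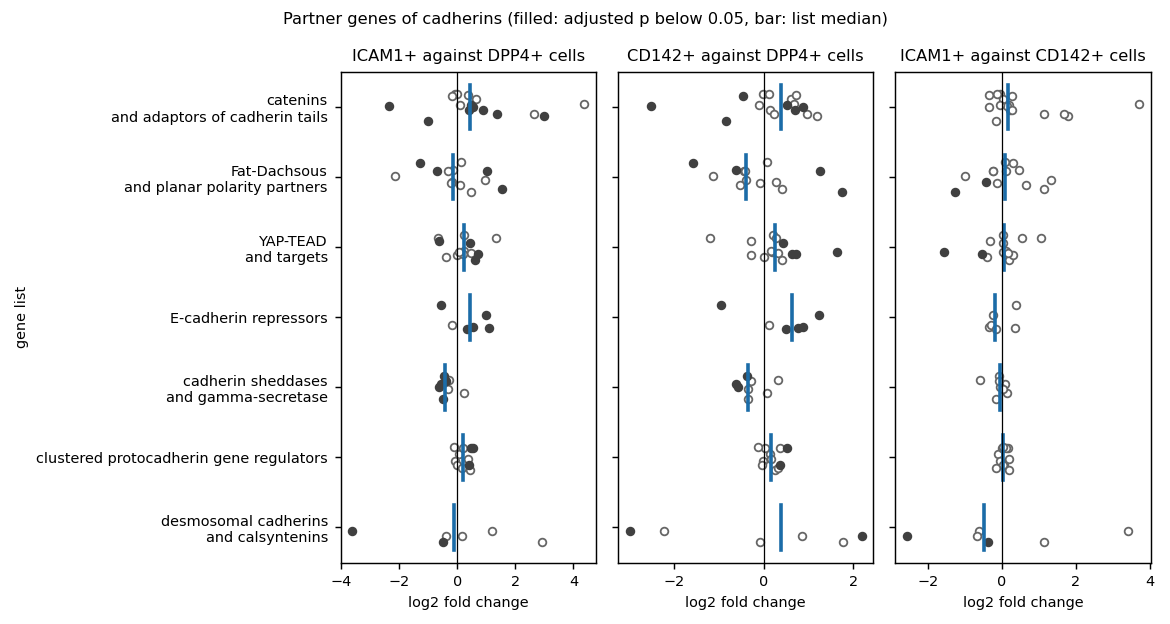
Log2 fold change (x axis) of partner genes in 7 lists (y axis) for the 3 comparisons, with filled circles for an adjusted p below 0.05 and a blue bar at the list median. In ICAM1+ against DPP4+ cells the list of sheddases and gamma-secretase has a median of -0.40 and that of E-cadherin repressors 0.44.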

How the data were processed

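Messenger RNA of sorted cells was sequenced from both ends. Processing notes of the submitters list STAR 2.5.2a, R 3.5.1 and the build mm10, and the authors used DESeq2. The annotation release, strand setting and library depths are not given in the sources used here, so no counting interval is given. The authors deposited 3 pairwise tables of 20659 rows, made from 1 fit over 9 libraries. The mean is a deposited signal, counts over size factors. The authors deposited log2 fold changes that were not shrunken, a Wald statistic (a score), p-values and adjusted p-values, and no count model was fitted here. Rows naming no gene (4, holding 59.6% of the summed means) were dropped. Genes were matched by identifier to GENCODE M21.

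Fitted levels solve the mean and fold changes for 3 equal groups. Calls use the deposited adjusted p below 0.05 (two-sided Wald test). Members named have a mean of at least 100 and a call, or the 2 highest means of their class, or stand apart from both other populations, or are Cdh19, Cdh5 or Pcdh12. From the other lists, genes with the largest called changes or highest means are named. Prickle2, Ctcf, Sox10, Pecam1, Pdgfra and Jup lie outside the rule and were chosen after their values were seen. The members and lists were chosen with earlier results of these data known. The scripts were tested on simulated data. Alternatives were other thresholds, filters, nulls and scalings.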

Additional observations from a re-analysis of the deposited data

How the results depend on the processing

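No paired analysis was possible because values per library were not used here, and for the same reason no library could be left out and no other tool run. The members called numbered 21, 14 and 12 for ICAM1+ and CD142+ cells against DPP4+ cells and for ICAM1+ against CD142+ cells, and the population entries 21. At an adjusted p below 0.01 the count for ICAM1+ against CD142+ cells was 6. With p adjusted only over genes whose mean reached 100 the counts were 10, 8 and 6, and 12 entries, since only 14 members were then tested. Requiring an absolute log2 fold change above 1 gave 8 for CD142+ against DPP4+ cells and 11 entries. Tested against a null of an absolute log2 fold change up to 1 (Wald test), the DESeq2 values gave 2, 3 and 0 members and 1 entry, with 1 member at an unadjusted p below 0.05 where the count was 0. The other counts stayed within 1.5 times.

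Subtracting the median fold change of genes whose mean reached 100 (-0.067, -0.053 and -0.024) turned the sign of Dchs1 in ICAM1+ against CD142+ cells (0.02) and of Cdh2 in CD142+ against DPP4+ cells (0.01), neither called, and ended the call of Fat4 in CD142+ against DPP4+ cells (-0.29). Adjusting over every gene ended the calls of Cdh23, Cdh15 and Cdh6 in ICAM1+ against CD142+ cells.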
